A study of Mus musculus with 18 samples.

Results

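The tight junction genes described here were 9 of the 21542 named genes measured in ileal epithelial cells of 18 mice. They were the claudin genes Cldn2, Cldn15, Cldn3 and Cldn7, the MARVEL-domain genes Ocln (occludin) and Marveld2 (tricellulin), F11r (junctional adhesion molecule A, JAM-A) and the scaffold genes Tjp1 (ZO-1) and Tjp3 (ZO-3). The members were chosen by gene name, and each gene was read from its brightest probe on a mouse whole-genome array with a single fluorescent dye. The 9 names had 14 probes, all of which were well above background on all 18 arrays and none of which was saturated on any array. The values below are normalized log2 signals, 1 array per mouse. A signal depends on the probe as well as on the RNA, so levels were compared between groups and never between genes.

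The mice were male C57BL6/J littermates in 3 groups of 6. Floxed chow mice carried the floxed Ppargc1a allele (labelled iPGC1afl/fl) with no Cre and ate chow, also for 8 weeks from 8 weeks of age. Floxed HFD mice had the same genotype and ate a high-fat diet with 42% of kcal as fat and 0.2% cholesterol for 8 weeks from 8 weeks of age. Mice labelled iPGC1a-/- HFD ate the same diet and carried the floxed allele with Cre under the Villin 1 promoter, which is active along the intestinal epithelium and drives deletion of exons of Ppargc1a, the gene of the coactivator PGC1a. All were killed after an overnight fast, and iPGC1a-/- mice on chow were not analysed here. The samples were bulk preparations of cells released from the ileum, although the labels call them single cells. Of the spots on an array, 56.3% to 62.3% were well above background, with group medians of 60.9% in floxed chow, 58.3% in floxed HFD and 58.8% in iPGC1a-/- HFD. The targeted gene was not lower in the arrays labelled iPGC1a-/-: Ppargc1a averaged 10.94 ± 0.46 (SD, n = 6) in floxed chow, 11.38 ± 0.07 in floxed HFD and 11.67 ± 0.26 in iPGC1a-/- HFD. Its dimmer probe averaged 8.64 in floxed chow, 9.15 in floxed HFD and 9.51 in iPGC1a-/- HFD. The 2 Ppargc1a probes lie at chr5:51848928-51848987 and chr5:51849419-51849478 (mm9, minus strand). Whether they fall in the deleted exons was not determined, so they do not check the genotype label. The authors report that RT-qPCR of the gene along the intestine showed the deletion.

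Tight junctions seal the space between neighbouring epithelial cells near their apical border. Claudins are membrane proteins that set which solutes pass between the cells. Claudin-2 and claudin-15 form channels for cations, whereas claudin-3 is counted among the sealing claudins. In the small intestine, sodium that returns to the lumen through claudin-2 and claudin-15 sustains the sodium-coupled uptake of nutrients. Occludin and tricellulin are membrane proteins with a MARVEL domain, of which tricellulin sits where corners of cells meet. JAM-A is an immunoglobulin-like adhesion molecule, and the ZO proteins bind claudins, occludin and JAM-A from inside the cell and tie them to actin.

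The probes of the 4 genes that passed the test in some comparison are shown by their first 30 bases of 60, since each value below is the signal of one such probe. Lower case is used throughout because no letters are singled out.
Cldn2 brighter probe: agtgtggaacatctgtgaccaaggtgttgt
Cldn2 dimmer probe: ccagtgcgatatctacagtacccttttagg
Cldn15 probe: actacacacatgcacacattctcaacaaaa
Tjp1 brighter probe: cagcacgatttctgtttagataatacacca
Tjp1 dimmer probe: tttcgctgtgtattactaagtttttatgag
Marveld2 brighter probe: cccctctctctttaatgcaagatattgccg
Marveld2 dimmer probe: aaaggagcgttgcgattacctcaagaacaa
In mm9 the Cldn2 probes lie at chrX:136345244-136345303 and chrX:136343432-136343491 and the Cldn15 probe at chr5:137451465-137451524, all on the plus strand. The Tjp1 probes lie at chr7:72441126-72441185 and chr7:72441703-72441762 and the Marveld2 probes at chr13:101366067-101366126 and chr13:101367287-101367346, all on the minus strand. The exon that each probe falls in was not determined here, as no annotation of that build was used.

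Cldn2 and Cldn15, the pore-forming claudins, moved in opposite directions on the HFD, so the DNA around their transcription starts is given for reference (RefSeq, build GRCm38.p6, 250 bases before to 50 after the start, plus strand). Capitals mark matches to TATAAA (the TATA box), GGGCGG (a GC box) and TTTAT (the core sequence of the intestinal CDX homeobox factors), each searched on both strands.
Cldn2, chrX:139800558-139800857: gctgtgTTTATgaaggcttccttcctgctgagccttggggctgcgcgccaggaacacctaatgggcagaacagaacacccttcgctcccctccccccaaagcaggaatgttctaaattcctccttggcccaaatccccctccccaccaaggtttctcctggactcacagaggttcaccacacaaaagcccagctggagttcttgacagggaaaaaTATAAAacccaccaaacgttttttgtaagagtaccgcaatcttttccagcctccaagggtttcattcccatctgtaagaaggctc
Cldn15, chr5:136967619-136967918: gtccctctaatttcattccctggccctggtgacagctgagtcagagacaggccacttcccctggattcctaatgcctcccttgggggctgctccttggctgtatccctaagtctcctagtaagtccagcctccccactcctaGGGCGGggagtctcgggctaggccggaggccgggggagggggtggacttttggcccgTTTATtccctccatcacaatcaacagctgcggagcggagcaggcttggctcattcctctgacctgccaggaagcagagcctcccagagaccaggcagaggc
The Cldn2 window held a TATA box 35 bases before the start and a CDX core 244 bases before it. Every TATA box also holds a CDX core on the other strand, so that match is not counted again. The Cldn15 window held no TATA box, a GC box 108 bases before the start and a CDX core 51 bases before it. Of all 32851 promoter windows of this length, 13.6% held a TATA box, 35.7% a GC box and 40.0% a CDX core, so each of these matches is common, and none shows that a factor binds there.

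The first comparison asked how the HFD changed these genes in floxed mice. Cldn2 fell, its HFD mean lying below every chow mouse, while Cldn15 and Tjp1 rose by less than 1.5-fold. In total, 3 of the 9 genes (33.3%) passed the test at an adjusted p of 0.05 or lower, 2 higher and 1 lower, where 24.6% of all 21542 genes did so (10.4% higher and 14.2% lower). The share of tight junction genes was thus near that of genes at large, and their median log2 fold change was -0.02 against 0.00 for all genes. Adjusted p-values are from limma, with Benjamini-Hochberg adjustment over all probes tested. In such bulk samples fewer cells of a type and less RNA per cell cannot be told apart.

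Cldn2 had the largest change of the 9 genes. Its signal was lowest at 9.13, with a median of 9.79 and a highest value of 10.43, in floxed chow. In floxed HFD the lowest, median and highest values were 8.09, 9.07 and 9.25. The groups overlapped through a single chow mouse, floxed chow replicate 1 at 9.13, which lay below 1 HFD mouse. The mean was 1.93-fold lower on the HFD (log2 fold change -0.95, SE 0.21, 95% interval -1.39 to -0.52, adjusted p = 0.00242). By its brightest probe it was the 1 member both called and past a 1.5-fold change on the HFD, as 8.43% of all genes were. The dimmer Cldn2 probe, which reads another stretch of the same transcript, fell by 0.56 (SE 0.11, adjusted p = 0.00103), or 1.47-fold. Its arrays did not overlap between the groups, with chow between 5.58 and 6.36 and HFD between 5.26 and 5.50. Of all genes, 10.4% had no such overlap. The signals of this probe were low, and background was not subtracted from them. The arrays were run on 3 slides that each held 2 mice of every group. The Cldn2 difference was -0.23 within slide 1, -1.05 within slide 2 and -1.57 within slide 3, so its direction was shared by the slides but its size ranged widely. Cldn2 also varied most within groups, with an SD of 0.41 where the median gene had 0.18.

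Cldn15 rose. Floxed chow mice lay between 13.14 and 14.04 with a median of 13.76, and floxed HFD mice lay between 14.11 and 14.35 with a median of 14.23. No HFD mouse fell within the chow range, although the gap between the highest chow and the lowest HFD value was small. Such separation of all arrays was seen in 10.4% of all genes and in 1 of these 9. The mean was 1.45-fold higher (log2 fold change 0.54, SE 0.12, 95% interval 0.30 to 0.78, adjusted p = 0.00209). The differences within slides were 0.91, 0.27 and 0.44. The chow mice were spread more widely (SD 0.32) than the floxed HFD mice (SD 0.09).

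Cldn3, Cldn7, Ocln, Marveld2 and F11r did not pass the test on the HFD. Cldn3 had medians of 14.13 in floxed chow and 14.22 in floxed HFD (log2 fold change 0.09, SE 0.07, adjusted p = 0.379). Cldn7, a claudin of the lateral membrane as well as the junction, had medians of 16.24 and 16.23 (-0.06, SE 0.07, adjusted p = 0.615). Its second, much dimmer probe gave -0.22 with an SE of 0.19 (adjusted p = 0.454). The Cldn3 probe and the brighter Cldn7 probe were steady from mouse to mouse, with group SDs of 0.08 to 0.15, whereas the dimmer Cldn7 probe had an SD of 0.60 in floxed chow. The 95% intervals, -0.06 to 0.24 for Cldn3 and -0.21 to 0.10 for the brighter Cldn7 probe, lay inside a 1.5-fold change (0.58 on the log2 scale) in either direction.

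Ocln, the gene of occludin, had medians of 9.25 in floxed chow and 9.17 in floxed HFD (-0.03, SE 0.11, 95% interval -0.25 to 0.19, adjusted p = 0.858). Marveld2 had medians of 9.81 and 10.03 (0.12, SE 0.11, 95% interval -0.10 to 0.34, adjusted p = 0.442). F11r had medians of 13.22 and 13.28, with means that gave -0.02 (SE 0.09, 95% interval -0.21 to 0.17, adjusted p = 0.898). The direction for Cldn7, Ocln and F11r changed with the scaling of the arrays, so none is given a direction here. In all, 7 of the 9 genes had intervals inside a 1.5-fold change on the HFD, the exceptions being Cldn2 and Cldn15.

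The scaffold genes did not share a direction. Tjp1 lay between 9.65 and 10.06 in floxed chow (median 9.69) and between 9.99 and 10.24 in floxed HFD (median 10.08). Only floxed chow replicate 2, at 10.06, reached into the HFD range. The mean was 1.24-fold higher (log2 fold change 0.31, SE 0.09, 95% interval 0.12 to 0.50, adjusted p = 0.0191), and its second probe gave 0.32 (SE 0.11, adjusted p = 0.0448). Within slides the difference was 0.49, 0.25 and 0.19. Tjp3 lay between 13.66 and 14.16 in floxed chow (median 14.05) and between 13.68 and 13.84 in floxed HFD (median 13.79). Its log2 fold change of -0.22 (SE 0.08) did not pass the test (adjusted p = 0.0602), nor did that of its second probe (-0.26, SE 0.11, adjusted p = 0.0813). The Tjp3 result depended on 1 chow mouse: without floxed chow replicate 3, at 13.66 the lowest of its group, the value was -0.29 with an adjusted p of 0.00515.

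**Figure D1:**
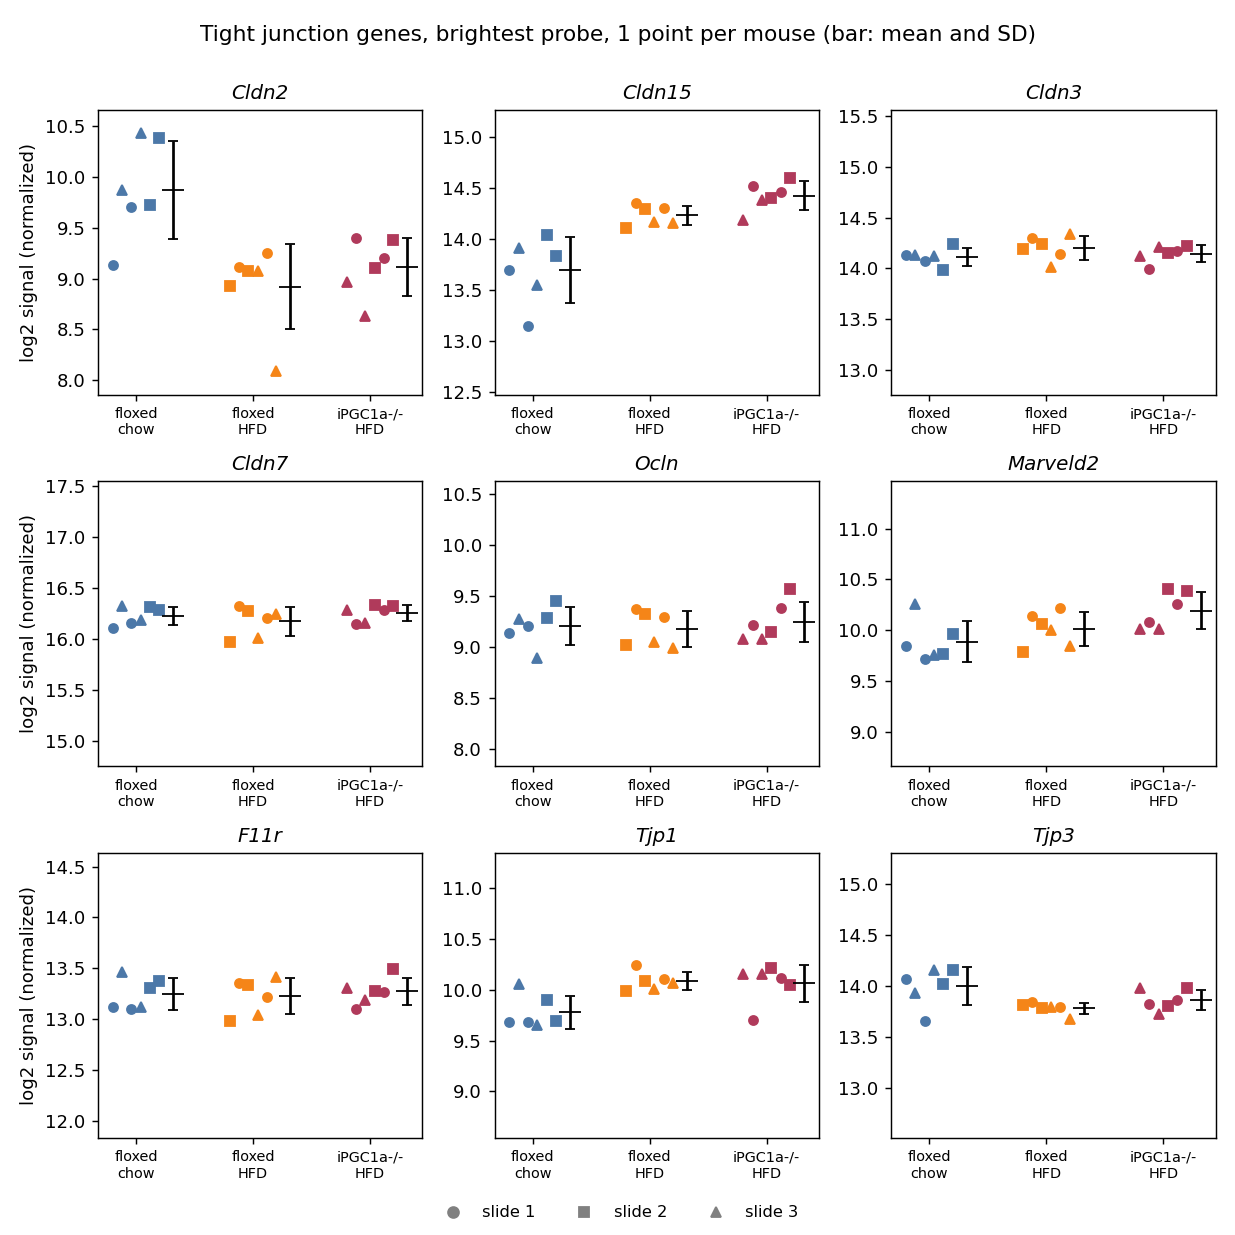
Normalized log2 signal (vertical axis, each panel centred on its own gene with the same span) of the brightest probe of each tight junction gene in the 3 groups on the horizontal axis, with 1 point per mouse, the point shape giving the slide and the black bar the mean and SD of 6 mice. Cldn2 points of both HFD groups lie mostly below the chow points and Cldn15 points lie above them, while Cldn3, Cldn7 and F11r sit at nearly one level.

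The second comparison asked whether the genotype label made a difference among mice on the HFD. None of the 9 genes passed the test, by limma, between iPGC1a-/- HFD and floxed HFD, and 0 of them had an unadjusted p below 0.05. Of all genes 0.227% were called, so 0 of 9 members lies near the background. No other tool was run, but none of the processing alternatives called a member in this comparison. As the Ppargc1a probes did not check the genotype, directions in this comparison and the next are those of the labels.

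By brightest probe, the largest differences by label were those of Cldn15, Cldn2 and Marveld2, all positive and none called. The dimmer probes of Cldn2 (0.01, SE 0.11, adjusted p = 0.978) and Marveld2 (-0.03, SE 0.10, adjusted p = 0.942) did not share these differences. Cldn15 lay between 14.19 and 14.60 in iPGC1a-/- HFD (median 14.43) and between 14.11 and 14.35 in floxed HFD (0.20, SE 0.12, 95% interval -0.05 to 0.44, adjusted p = 0.601). Within slides it differed by 0.17, 0.30 and 0.12. Cldn2 lay between 8.63 and 9.40 (median 9.15; 0.20, SE 0.21, 95% interval -0.24 to 0.63, adjusted p = 0.788). Without floxed HFD replicate 6, the mouse with the lowest Cldn2 signal, the same difference was 0.02 (adjusted p = 0.991). Marveld2 lay between 10.01 and 10.41 (median 10.17; 0.18, SE 0.11, adjusted p = 0.592).

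The brightest probes of the remaining members differed by less still, although the second Tjp3 probe gave 0.19 (SE 0.11, adjusted p = 0.582). Tjp1 differed by -0.02 (SE 0.09, adjusted p = 0.954), Tjp3 by 0.08 (SE 0.08, adjusted p = 0.777), Ocln by 0.07 (SE 0.11, adjusted p = 0.853), F11r by 0.05 (SE 0.09, adjusted p = 0.891), Cldn7 by 0.08 (SE 0.07, adjusted p = 0.742) and Cldn3 by -0.06 (SE 0.07, adjusted p = 0.805). For 8 of the 9 genes the 95% interval lay inside a 1.5-fold change, Cldn2 being the exception with an upper bound of 0.63. The dimmer Cldn7 probe gave the widest value, 0.38 (SE 0.19, 95% interval -0.03 to 0.79, adjusted p = 0.547), which its brighter probe did not share.

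**Figure D2:**
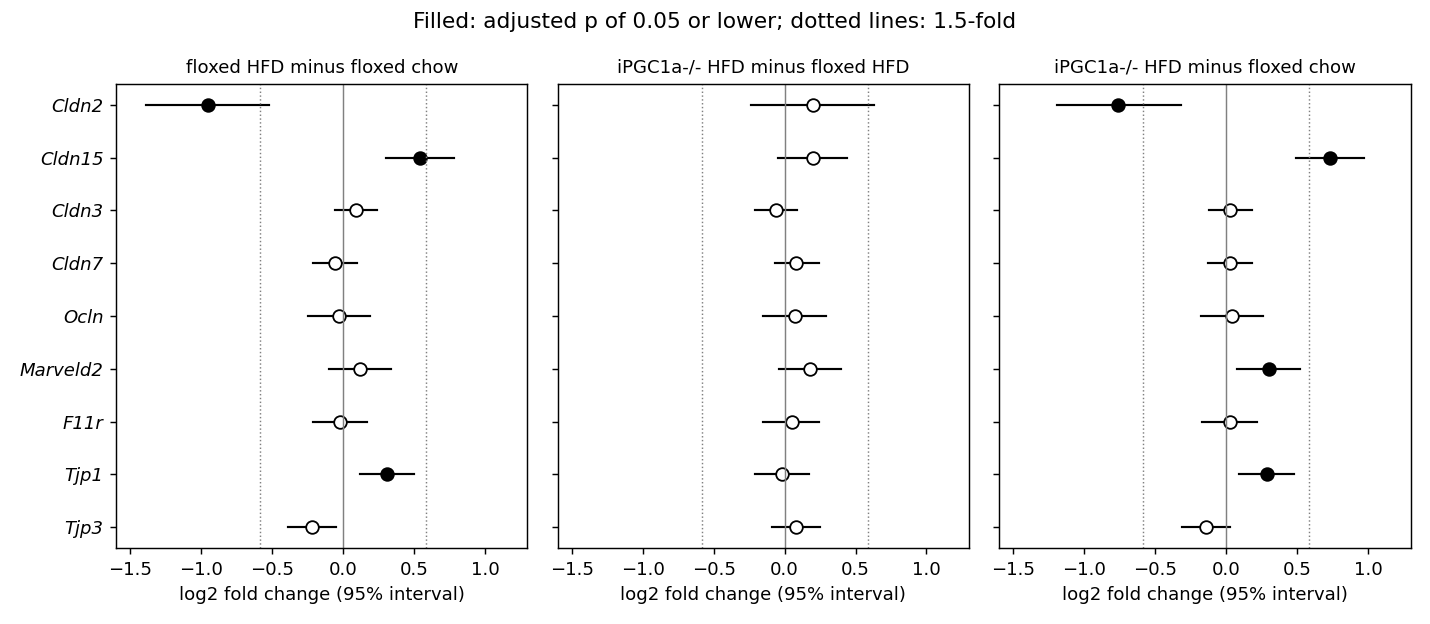
Log2 fold change (horizontal axis) of each tight junction gene in the 3 comparisons, with the 95% interval as a line, filled circles for an adjusted p of 0.05 or lower and dotted lines at a 1.5-fold change. Filled circles appear for Cldn2, Cldn15 and Tjp1 with the diet, for none of the genes with the genotype label, and for Cldn2, Cldn15, Tjp1 and Marveld2 when both differed.

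The third comparison set iPGC1a-/- HFD against floxed chow, so that diet and genotype label both differed. It shares its chow mice with the first comparison and its iPGC1a-/- mice with the second, and is therefore no independent repeat of either. In it 4 of the 9 genes (44.4%) were called, 3 higher and 1 lower, against 36.8% of all genes (16.8% higher and 20.0% lower). The median log2 fold change was 0.03 for the members and -0.01 for all genes.

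Cldn15 was 1.66-fold higher (log2 fold change 0.73, SE 0.12, 95% interval 0.49 to 0.97, adjusted p = 8.52e-05), and again no mouse overlapped, which held for 16.2% of all genes. Cldn2 was 1.69-fold lower (-0.76, SE 0.21, 95% interval -1.19 to -0.32, adjusted p = 0.00839), with floxed chow replicate 1 again inside the range of the HFD mice. Within slides the Cldn2 difference was -0.11, -0.81 and -1.35. Its dimmer probe fell by 0.54 (SE 0.11, adjusted p = 0.000858), or 1.46-fold. By their brightest probes the pore-forming claudins were thus the 2 members past a 1.5-fold change here, as 11.8% of all genes were.

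Tjp1 was 1.22-fold higher (0.29, SE 0.09, adjusted p = 0.0202). Its iPGC1a-/- HFD mice lay between 9.70 and 10.21, and iPGC1a-/- HFD replicate 2, at 9.70, sat among the chow mice. The call was lost without iPGC1a-/- HFD replicate 4 (0.25, adjusted p = 0.0533) and without replicate 5 of that group (0.25, adjusted p = 0.0594). Marveld2 was 1.23-fold higher (0.30, SE 0.11, adjusted p = 0.0310) by its brighter probe only. Its dimmer probe gave 0.01 (SE 0.10, 95% interval -0.19 to 0.22, adjusted p = 0.938), with medians of 7.59 in floxed chow and 7.57 in iPGC1a-/- HFD. The Marveld2 call was also lost when any of 7 single mice was left out, floxed chow replicates 1, 3, 4 and 5 (0.26 to 0.29, adjusted p 0.0567 to 0.0790) and iPGC1a-/- HFD replicates 4, 5 and 6 (0.25 to 0.27, adjusted p 0.0729 to 0.0816).

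Tjp3 (-0.14, SE 0.08, adjusted p = 0.198), Cldn3 (0.03, SE 0.07, adjusted p = 0.777) and Ocln (0.04, SE 0.11, adjusted p = 0.798) were not called. Tjp3 too passed here without floxed chow replicate 3 (-0.21, adjusted p = 0.0256). Cldn7 (0.03, SE 0.07, adjusted p = 0.819) and F11r (0.03, SE 0.09, adjusted p = 0.842) were not called either.

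**Figure D3:**
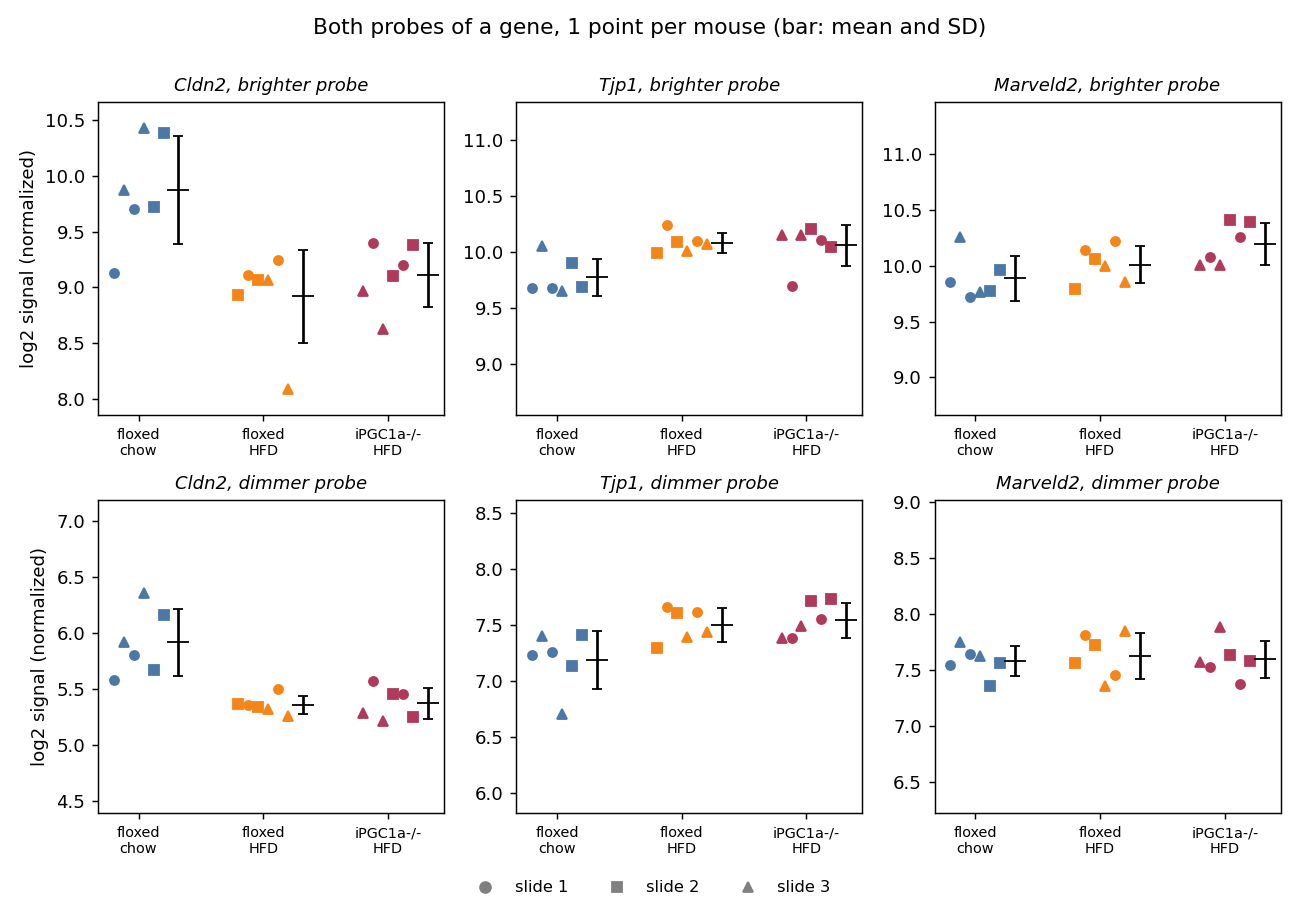
Normalized log2 signal (vertical axis) of both probes of Cldn2, Tjp1 and Marveld2 in the 3 groups, with 1 point per mouse, shapes for slides and bars for mean and SD. The 2 probes of Cldn2 and of Tjp1 moved the same way with the HFD, whereas the Marveld2 probes differ, the dimmer one staying near 7.6 in every group.

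Each called gene was also set against all genes outside the members. The measure was the root mean square distance between log2 values centred on their mean over the 18 arrays. The values were not scaled, so the distance also grows with a gene's spread. Nearest to Cldn15 were Siae, a sialic acid acetylesterase (distance 0.0827), Tmem19 (0.10) and Tango2 (0.107). Nearest to Tjp1 were Ndfip1, an adaptor of NEDD4-family ubiquitin ligases (0.0588), the mitochondrial NAD carrier gene Slc25a51 (0.0760) and Limd1 (0.0878). Distances were larger for Cldn2, the member with the widest spread within groups (SD 0.41). Its nearest were the long-chain fatty acid receptor gene Ffar4 (0.249), a transcript with no gene symbol (0.268) and Ncald (0.284). Nearest to Marveld2 were Frmd8 (0.10), Cpeb2 (0.101) and Spint2, a serine protease inhibitor (0.102). These genes were picked for likeness, so the values only describe the pattern.

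Other genes of the tight junction and of apical polarity gave a similar picture. Of 52 listed, 38 were measured, and 4 were higher and 4 lower on the HFD (21.1%), 0 were called for the genotype label (5 had an unadjusted p below 0.05), and 7 were higher and 4 lower in iPGC1a-/- HFD against floxed chow (28.9%). The shares of all genes called were 24.6%, 0.227% and 36.8%, so these counts were near or below the background. Their median log2 fold changes were 0.08, 0.01 and 0.08. Cldn5 could not be assessed, since its probe was well above background on 0, 1 and 0 of the 6 arrays of floxed chow, floxed HFD and iPGC1a-/- HFD.

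On the HFD 10.4% of all genes were higher and 14.2% lower. Of 11 measured other claudins, Cldn18 was the single one called there (0.36, SE 0.10, adjusted p = 0.0143). Cldn17 joined it in the third comparison (0.37, SE 0.11, adjusted p = 0.0120), where 16.8% of all genes were higher. Both signals were low, and background was not subtracted. In floxed chow, floxed HFD and iPGC1a-/- HFD, Cldn18 averaged 5.91, 6.27 and 6.22 and Cldn17 5.12, 5.31 and 5.48. The Cldn17 probe was well above background on 5, 5 and 6 of the 6 arrays of these groups. Of 6 other membrane proteins 1 rose and 1 fell. Ildr1 (angulin-2), which with tricellulin marks the corners between cells, fell from between 6.53 and 7.67 in floxed chow to between 6.14 and 6.62 in floxed HFD (-0.68, SE 0.16, adjusted p = 0.00523). In iPGC1a-/- HFD it was 1.03 below floxed chow on the log2 scale (-1.03, SE 0.16, adjusted p = 8.69e-05). Jam2, a relative of F11r found in endothelium, was not well above background on any floxed chow array but was on every array of the other groups, at least 1.44-fold higher in floxed HFD and at least 1.51-fold higher in iPGC1a-/- HFD. Measured means were 4.76, 5.33 and 5.40. Since it passed the filter only through the groups where it was high, its calls, which the counts above include, had to show a difference and are no support.

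The short counts that follow are to be read against the 10.4% of all genes that were higher and the 14.2% that were lower on the HFD. Of 13 scaffold and signalling genes 2 rose and 3 fell. Magi2, a multi-PDZ scaffold, fell from between 6.56 and 7.02 in floxed chow to between 5.56 and 5.92 in floxed HFD, with no overlap (-0.99, SE 0.10, adjusted p = 1.55e-06), and to between 5.17 and 5.76 in iPGC1a-/- HFD (-1.22, SE 0.10, adjusted p = 6.54e-08). Its relative Magi1 rose by 0.23 (SE 0.08, adjusted p = 0.0489) on the HFD. Amotl2 also rose (0.34), and Ybx3 (-0.46) and Amot (-0.41) fell. None of 8 genes of the apical polarity complexes was called on the HFD. In the third comparison 2 of the 8 were called, both higher, where 16.8% of all genes were higher and 20.0% lower. They were Prkcz (0.54, SE 0.11, adjusted p = 0.00121) and Patj (0.37, SE 0.10, adjusted p = 0.00981).

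The other cell-cell junctions were mixed as well, with counts of 1 per list that lie near those shares of all genes. Of 10 adherens junction genes 1 rose (Vcl, vinculin, 0.44) and 1 fell (Nectin1, -0.44) on the HFD, while Cdh1, the gene of E-cadherin, had -0.04 (SE 0.08, adjusted p = 0.728). Of 9 desmosome genes 1 rose (Evpl, envoplakin, 0.56) and 0 fell. Of 5 gap junction genes 1 fell, Gjb2 (a connexin; -0.71, SE 0.13, adjusted p = 0.000728), and it had the same value of -0.71 in the third comparison (adjusted p = 0.000482). No gene of these 3 lists was called for the genotype label.

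**Figure D4:**
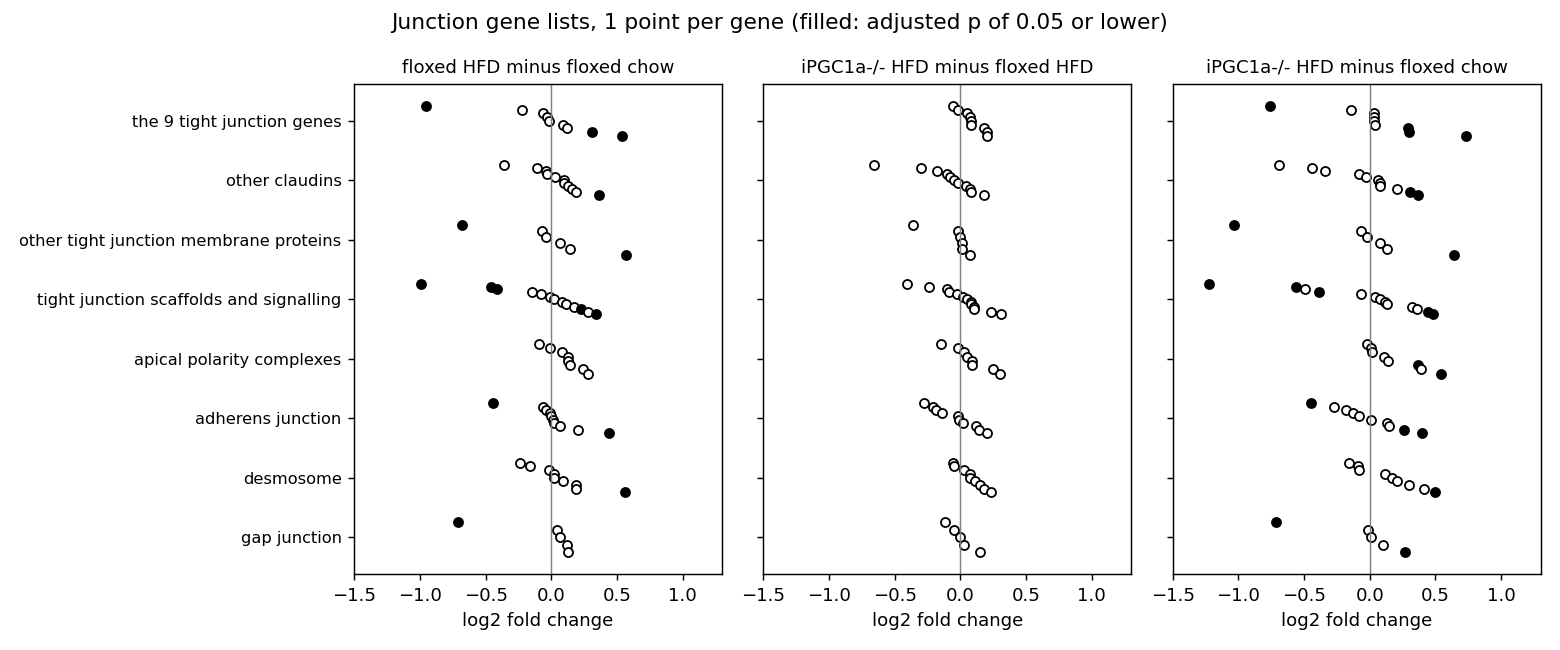
Log2 fold change (horizontal axis) of each measured gene of the 9 tight junction genes and of 7 other junction lists (rows), in the 3 comparisons, with 1 point per gene and filled points for an adjusted p of 0.05 or lower. With the diet most points lie within a 1.5-fold change of 0 and filled points fall on both sides, and with the genotype label no point is filled.

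Markers of other cells moved with the diet beside these genes, where 10.4% of all genes were higher and 14.2% lower. The 9 epithelial and enterocyte markers had 1 higher (Alpi, intestinal alkaline phosphatase, 0.90) and 1 lower (Krt18, a keratin, -0.36) on the HFD, and the sum of their linear signals ran from 744000 to 887000 in floxed chow and from 740000 to 849000 in floxed HFD. By contrast, 6 of 7 T cell markers were lower, their sum being 14500 to 47700 in floxed chow and 6900 to 11100 in floxed HFD. All 5 B cell markers were lower (1560 to 4300 against 198 to 1260), as were all 6 goblet cell markers (427000 to 567000 against 186000 to 460000). These sums are weighted to the brightest probes, such as Fabp2 (mean log2 18.17 in floxed chow) for epithelium and Gzma (14.38) for T cells. Along the crypt-villus axis, 3 of 4 villus tip markers (Nt5e, Slc28a2 and Klf4) were lower. So were 2 of 4 ileal enterocyte markers (the bile acid transporter genes Slc10a2 and Slc51b). The 6 crypt stem cell markers were mixed, with 2 lower (Axin2 and Mki67). The other crypt markers were not called, Lgr5 (0.29) and Ascl2 (0.10) being positive and Olfm4 (-0.23) and Smoc2 (-0.17) negative. Of the Paneth, enteroendocrine, tuft and macrophage markers 1 each was lower (Mmp7, Chga, Trpm5 and Cd68), of 5, 6, 3 and 3 measured. Of 6 stromal and muscle and 2 endothelial markers none was called on the HFD, and the endothelial markers Cdh5, Kdr, Tek and Emcn were below the filter. None of these lists had a called gene for the genotype label. What part these cells had in the changes of Cldn2, Cldn15 and Tjp1 was not tested.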

How the data were processed

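RNA of ileal epithelial cells, released with a chelating buffer, was hybridised by the authors to Agilent mouse arrays, 1 per mouse, and scanned with Agilent Feature Extraction 10.10.1.1. The deposited scanner files hold spot intensity values, not normalized, with flags for background and outliers. A deposited table of log2 values served as an alternative. The authors' methods describe filtering, correction for washing bath and labelling batch, and normalization. Each array of that table correlated with the uncorrected log2 median signal at 1 after rounding. Whether the batch correction is in the table was not determined. The batches themselves are not in the labels used here.

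From the scanner files, the median intensity was taken to log2, outlier spots were removed, spots of a probe were averaged, and probes well above background on 5 of 6 arrays of any group were kept (32726 probes). Arrays were normalized by smooth quantile normalization written for this work (window 0.05). One limma model (version 3.58.1, R 4.3.3) of the 3 groups gave the contrasts, with Benjamini-Hochberg adjustment over the kept probes and calls at an adjusted p of 0.05 or lower. No pseudocount was added. The brightest kept probe stands for a gene, and errors are SD over 6 mice or the SE of the fit. The number of arrays limits the precision. Methods were tested on simulated data. Named besides the 9 members are genes of junction lists that were called with a fold above 1.5 (at most 4 per list and comparison), Cldn5, Cdh1 and Ppargc1a, and the 3 genes nearest to each called member. Other junction and marker genes, such as Cldn18, Magi1 and Alpi, were named after their values were seen, to identify short counts. A further gene of the naming rule is not reported here. The members and lists were chosen with earlier results of these data known.

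All 9 member names matched a RefSeq symbol. Alternatives were other normalizations and filters, the deposited log2 table, slide and replicate blocks, other call rules and leaving out each mouse.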

Additional observations from a re-analysis of the deposited data

Results flagged for a closer look

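In 30 groups of 6 arrays (the 9 tight junction genes and Ppargc1a in each group), 2 mice stood apart from the rest of their group, where chance alone picks out about 1 group in 20. The Cldn2 signal of floxed HFD replicate 6 was 8.09, with the next mouse at 8.93, a gap of 0.724 of the range of the group. Without that mouse Cldn2 differed by -0.77 (adjusted p = 0.00596) between floxed HFD and floxed chow. The Tjp1 signal of iPGC1a-/- HFD replicate 2 was 9.70, with the next mouse at 10.05, a gap of 0.677 of the range. Without it Tjp1 differed by 0.36 (adjusted p = 0.00263) between iPGC1a-/- HFD and floxed chow. The cause of either value was not tested.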

How the results depend on the processing

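Cldn2 and Cldn15 kept their direction and their call in the diet comparison and in iPGC1a-/- HFD against floxed chow under all 12 alternatives of normalization, filter, probe choice and model and with each of the 18 mice left out in turn. On the HFD, Cldn2 ranged from -0.96 to -0.75 over the former and from -1.11 to -0.77 over the latter, and Cldn15 from 0.54 to 0.66 and from 0.42 to 0.61. Tjp1 kept its diet call under these too (0.29 to 0.36 and 0.27 to 0.37) but lost it under both stricter call rules. With a fold above 1.5 also asked for, the called members numbered 1 on the HFD (Cldn2) and 2 in iPGC1a-/- HFD against floxed chow (Cldn2 and Cldn15), and at an adjusted p of 0.01 they numbered 2 in each of these comparisons (Cldn2 and Cldn15). The diet count was 4, with Tjp3 added, under normexp with quantile normalization and with the mean of all probes. With each mouse left out, the counts ranged from 3 to 4 for the diet, from 0 to 0 for the genotype label and from 2 to 4 for the third comparison (2 without iPGC1a-/- HFD replicate 4 or 5). With the mean of all probes Marveld2 fell to 0.16 (adjusted p = 0.117). Nothing in the labels pairs mice by replicate number, and the numbers were not taken to pair them: deviations of same-numbered mice correlated between -0.22 and 0.35, over 0.1 in 9 of 18 pairs, although in 8 of 18 the own number correlated best, a hint from the data and not the design. With the replicate number as a block the counts were 3, 0 and 4, unchanged.

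Values that changed sign were all of uncalled genes near 0. With scaling to the 75th percentile of background-subtracted and of median signals, the diet values were 0.05 and 0.02 for Cldn7, 0.14 and 0.11 for F11r and 0.04 and 0.01 for Ocln (0.00 with normexp), and the genotype values were -0.04 and -0.02 for Cldn7, which was -0.01 in the third comparison with the median signal. These scalings moved the median of all genes by at most 0.08. Tjp1 by genotype was 0.01 with the mean of all probes. With each mouse left out, values ranged from -0.06 to 0.05 for Tjp1 by genotype, from -0.06 to 0.02 for F11r and from -0.10 to 0.02 for Ocln by diet, and in the third comparison from -0.01 to 0.06 for Cldn3, -0.02 to 0.05 for Cldn7, -0.01 to 0.07 for F11r and -0.02 to 0.09 for Ocln. The cause of these shifts was not tested.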
